A study of Mus musculus with 4 samples.

Results

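Macrophages are tissue phagocytes that clear dying cells, debris and microbes, and they are known by a set of secreted and surface proteins. C1q, the recognition unit of the classical complement pathway, is built from 3 related chains and is made by macrophages and dendritic cells rather than mainly by the liver. Lysozyme cleaves bacterial cell walls, CD68 lies in the membrane of late endosomes and lysosomes, and the scavenger receptors MARCO, MSR1 and CD163 bind altered lipoproteins, microbes or haemoglobin complexes. Langerhans cells are epidermal antigen-presenting cells that share their embryonic origin with tissue macrophages but mature into migratory cells resembling dendritic cells.

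The 10 macrophage-type genes described here were C1qa, C1qb, C1qc, Cd68, Marco, Pf4, Lyz1, Cd163, Mertk and Msr1, out of 12393 genes with a probe set of their own. Every probe set that the platform annotation gave to one of them alone was used, which made 17 of the 22626 tested probe sets. Several of the 10 had been chosen by their log2 difference between the genotypes on these same arrays, being higher in AhR-deficient cells. Their genotype differences are therefore given as a description, and no call is made from them.

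The arrays came from Langerhans cells of ear epidermis. The first group held 2 arrays from AhR-deficient mice, which lack exon 2 of the gene for the aryl hydrocarbon receptor, a ligand-activated transcription factor, and the second held 2 arrays from wild-type C57BL/6 mice. The mice received no treatment, and the cells of both groups spent 16 hours in culture. Living cells positive for MHC class II were then sorted to a purity above 95%, from a low-density fraction with 20 to 35% Langerhans cells. The labels call the arrays of a genotype biological replicates, and neither age nor sex nor the number of mice behind each is stated, so the spread between arrays may be partly technical. They name no cell type or promoter for the deletion, and they differ on whether sheets or a cell suspension was cultured.

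Of 3 markers of the labelled cell type, 2 were bright on every array. Cd207, the Langerhans cell lectin langerin, had log2 values of 11.21 and 11.71 in AhR-deficient cells, against 11.00 and 12.06 in wild-type cells. Epcam, an adhesion molecule of Langerhans cells, had 11.06 and 10.71 in AhR-deficient cells, against 11.02 and 11.38 in wild-type cells. Both genes overlapped between the genotypes. Cdh1, which encodes E-cadherin, had 5.27 and 4.40 in AhR-deficient cells, against 4.06 and 4.68 in wild-type cells, and 2 of these 4 values were below the array's 25th percentile. The exon that the Ahr probe sets read is not known here, so the values of the brighter one, 8.55 and 8.60 in AhR-deficient cells against 7.61 and 8.23 in wild-type cells, do not check the genotype labels.

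The 10 genes divided into those with a larger genotype difference and those with almost none. In AhR-deficient cells the 3 C1q chains, Cd68, Marco, Pf4 and 2 of the 3 Lyz1 probe sets were higher, by 1.47-fold for Marco to 5.73-fold for the brightest Lyz1 probe set. Cd163, Mertk and the brightest Msr1 probe set differed by at most 0.07 on the log2 scale, and their genotypes overlapped. Of the 17 probe sets, 12 were higher without overlap, with each AhR-deficient array above each wild-type array, and 0 were lower, while over all tested probe sets 19% were higher without overlap and 16.2% lower. For 7 of the 17 the non-overlapping difference was at least 2-fold, against 0.393% of all probe sets. By the brightest probe set of each gene, 7 of the 10 genes were higher without overlap, 5 of them by at least 2-fold, against 18.8% and 0.46% of all genes. As this contrast helped to choose the genes, nothing is read from those shares.

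In limma, a linear model that shares the estimate of spread across probe sets, 0 of the 17 had a Benjamini-Hochberg adjusted p under 0.05, and 10 had an unadjusted p under 0.05. Over all probe sets 0.0177% passed the adjusted threshold, all of them lower in AhR-deficient cells (0 with any 1 array left out), and 6% had an unadjusted p under 0.05. With 2 arrays a genotype, the differences below are log2 sizes, AhR-deficient minus wild-type, with their standard errors (SE, the moderated SE of limma) and no call.

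**Figure D1:**
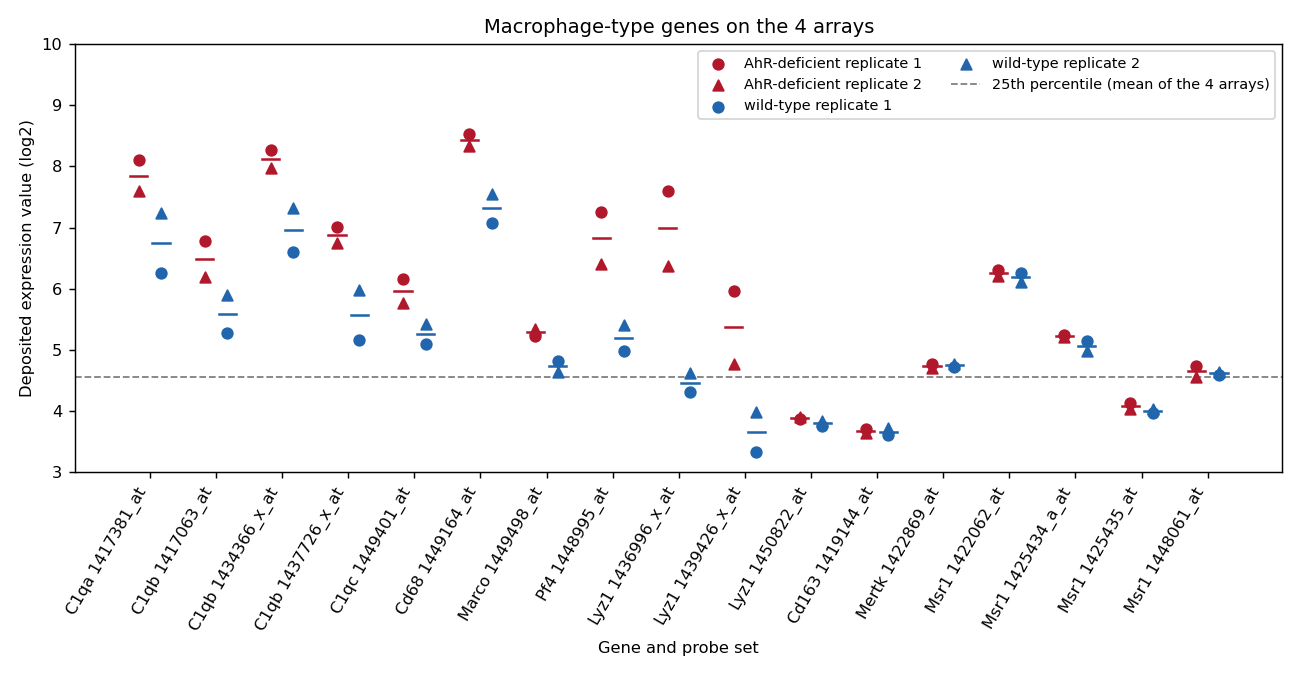
Log2 expression values of the 17 probe sets of the macrophage-type genes on each array; AhR-deficient arrays stand left of wild-type arrays, circles are replicate 1, triangles replicate 2, short lines the means, and the dashed line is the mean 25th percentile of the arrays. C1q, Cd68 and Pf4 separate by genotype above the dashed line, C1q by a gap smaller than the wider spread within a genotype. The Lyz1 probe sets disagree, and Cd163 lies below the dashed line on all 4 arrays.

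The chains of C1q make 1 protein. In the RefSeq gene table C1qa, C1qc and C1qb are neighbours on chromosome 4, with 0 protein-coding genes between them. C1qa, the A chain, had log2 values of 8.11 and 7.59 in AhR-deficient cells, against 6.25 and 7.24 in wild-type cells (difference 1.10, SE 0.39). The nearest arrays of the genotypes were only 0.35 apart, less than the 1.0 between the wild-type arrays. Without wild-type replicate 1 the difference of C1qa was 0.60.

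C1qb, the B chain, had 3 probe sets, and the brightest gave 8.27 and 7.97 in AhR-deficient cells, against 6.61 and 7.32 in wild-type cells. Its difference was 1.16 (SE 0.27), and the other C1qb probe sets differed by 1.31 (SE 0.30) and 0.90 (SE 0.30). The brightest and the 1.31 probe set carry the suffix _x_at, and the 0.90 probe set does not. That suffix marks probe sets that contain probes matching other sequences too. All 3 C1qb probe sets ordered the 4 arrays alike, with AhR-deficient replicate 1 highest and wild-type replicate 1 lowest. C1qc, the C chain, had 6.16 and 5.76 in AhR-deficient cells, against 5.10 and 5.43 in wild-type cells (difference 0.70, SE 0.19). The C1q chains thus shared 1 order of arrays, and for C1qc too the nearest arrays lay 0.34 apart, less than the 0.40 between the AhR-deficient arrays.

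The stretches of 250 bases before the annotated starts of C1qb and C1qc are shown because these neighbouring genes had the same order over the arrays. They are from RefSeq, build GRCm38.p6, minus strand, at chr4:136886201-136886450 and chr4:136892915-136893164, and C1qa had no entry. Capitals mark AGGAAG, letters found in many sites of the myeloid factor PU.1 and its ETS relatives, on either strand.
C1qb: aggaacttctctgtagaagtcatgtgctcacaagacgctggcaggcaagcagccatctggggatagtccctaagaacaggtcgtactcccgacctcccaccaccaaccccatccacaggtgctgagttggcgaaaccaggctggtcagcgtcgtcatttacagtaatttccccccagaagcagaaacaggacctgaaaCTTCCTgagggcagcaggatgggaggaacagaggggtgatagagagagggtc
C1qc: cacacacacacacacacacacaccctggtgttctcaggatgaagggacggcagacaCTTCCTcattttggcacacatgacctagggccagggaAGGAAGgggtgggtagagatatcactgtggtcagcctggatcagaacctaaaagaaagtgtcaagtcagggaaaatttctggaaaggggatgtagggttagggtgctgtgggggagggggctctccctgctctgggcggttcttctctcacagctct
The C1qb window held 1 match and the C1qc window 2. AGGAAG was present in 29.5% of all 32851 windows of this length. The core GCGTG, to which AhR and its partner bind, was searched on both strands and had 0 matches in the windows of the 8 macrophage-type genes with an entry, against 28.2% of all windows. A match or its lack describes these letters in this window and says nothing of binding.

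Cd68 encodes a heavily glycosylated lysosomal membrane protein of phagocytes. Its log2 values were 8.53 and 8.34 in AhR-deficient cells, against 7.08 and 7.55 in wild-type cells. The difference was 1.12 (SE 0.19), or 2.17-fold, and the genotypes were 0.78 apart at their nearest arrays, more than the 0.19 between the AhR-deficient arrays and the 0.48 between the wild-type arrays. The window before the Cd68 start (chr11:69666171-69666420, minus strand, same build) is shown because it alone among these genes held TGANTCA, the letters of AP-1 sites, in capitals. It held 2 matches, and 6.75% of all windows held any.
Cd68: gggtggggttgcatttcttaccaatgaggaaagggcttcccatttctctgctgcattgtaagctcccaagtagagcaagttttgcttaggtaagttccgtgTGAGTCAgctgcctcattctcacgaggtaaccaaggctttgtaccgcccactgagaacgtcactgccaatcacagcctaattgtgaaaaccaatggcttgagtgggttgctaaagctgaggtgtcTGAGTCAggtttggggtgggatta

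Pf4 encodes platelet factor 4 (CXCL4), a chemokine stored in platelet granules and also made by some tissue macrophages. It had log2 values of 7.26 and 6.41 in AhR-deficient cells, against 4.98 and 5.41 in wild-type cells. The difference was 1.64 (SE 0.33), or 3.11-fold, and the gap of 1.0 between the nearest arrays exceeded the 0.85 between the AhR-deficient arrays. Ppbp, a platelet chemokine gene that lies next to Pf4 on chromosome 5 with 0 protein-coding genes between, had 6.13 and 5.03 in AhR-deficient cells, against 4.45 and 4.82 in wild-type cells (difference 0.95, SE 0.40). For Ppbp, AhR-deficient replicate 2 lay closer to wild-type replicate 2 than to AhR-deficient replicate 1.

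Over all 13 measured genes of platelets and megakaryocytes, Ppbp included, the median difference was 0.00, with 3 higher and 4 lower without overlap (23.1% and 30.8%, against 18.8% and 16.6% of all genes). Of them limma called 0 at an adjusted p under 0.05 (0.0323% of all genes were called), and 0 had an unadjusted p under 0.05. Itga2b, an integrin chain of platelets, had 5.94 and 5.81 in AhR-deficient cells, against 5.97 and 5.78 in wild-type cells. Gp9, a subunit of the platelet receptor for von Willebrand factor, had 6.31 and 6.52 in AhR-deficient cells, against 6.52 and 6.65 in wild-type cells (difference -0.17, SE 0.11). Treml1, a platelet granule receptor, differed by -0.18 (SE 0.08). The summed linear level of the list was 829 and 839 in AhR-deficient cells, against 912 and 836 in wild-type cells, and 4 of the 13 (Clec1b, P2ry12, Vwf and Nfe2) were below the 25th percentile on every array. The part of platelet RNA in the values of Pf4 was not tested. The window before the Pf4 start (chr5:90772185-90772434, plus strand) is given because Pf4 had the greatest difference among the genes with a single probe set. It held 1 AGGAAG match, in capitals.
Pf4: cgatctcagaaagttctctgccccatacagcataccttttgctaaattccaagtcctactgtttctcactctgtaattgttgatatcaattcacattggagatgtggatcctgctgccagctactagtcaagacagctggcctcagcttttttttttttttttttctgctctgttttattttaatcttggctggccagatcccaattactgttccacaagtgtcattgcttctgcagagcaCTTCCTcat

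Lyz1 and Lyz2 encode the P and M lysozymes of the mouse, of which the M form is the one of macrophages and the P form that of Paneth cells in the gut. The brightest Lyz1 probe set had log2 values of 7.60 and 6.37 in AhR-deficient cells, against 4.31 and 4.62 in wild-type cells. Its difference of 2.52 (SE 0.44), 5.73-fold, was the greatest positive difference among all 22626 probe sets. As this contrast helped to choose the genes, nothing is read from that rank. Leaving out AhR-deficient replicate 1 gave 1.90, and leaving out replicate 2 of that genotype gave 3.14. Wild-type replicate 1 lay below its array's 25th percentile for this probe set. The second had 5.96 and 4.77 in AhR-deficient cells, against 3.34 and 3.99 in wild-type cells (difference 1.71, SE 0.47). Both wild-type arrays lay below the 25th percentile for that probe set, so its fold may be understated.

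The third Lyz1 probe set lacked such a difference. It had 3.87 and 3.90 in AhR-deficient cells, against 3.76 and 3.84 in wild-type cells, all below the arrays' 25th percentiles of 4.54 to 4.57, and a difference of 0.08 (SE 0.08). It still counted among the 12 probe sets higher without overlap, with the nearest arrays 0.025 apart. The suffix _x_at marks probe sets that contain probes matching other sequences too, and only the third probe set lacks it. Lyz2 had 1 probe set, without the suffix, with 7.48 and 6.48 in AhR-deficient cells, against 6.18 and 5.92 in wild-type cells (difference 0.93, SE 0.36). AhR-deficient replicate 1 was highest on both _x_at probe sets and on the Lyz2 probe set, and it was highest in 13 of the 17 probe sets. The order of the wild-type arrays differed, with replicate 1 higher for Lyz2 and replicate 2 higher for both _x_at probe sets. The Lyz1 result thus rests on which probe sets are read, and signal from Lyz2 in the _x_at probe sets was not tested, as the probe sequences were not used here.

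Lyz1 and Lyz2 are neighbours on chromosome 10, with 0 protein-coding genes between them. The windows before their starts are shown for their likeness (Lyz1 at chr10:117292869-117293118, Lyz2 at chr10:117282273-117282522, both minus strand, same build). These windows do not show which sequences the probe sets read. Capitals mark AGGAAG on either strand.
Lyz1: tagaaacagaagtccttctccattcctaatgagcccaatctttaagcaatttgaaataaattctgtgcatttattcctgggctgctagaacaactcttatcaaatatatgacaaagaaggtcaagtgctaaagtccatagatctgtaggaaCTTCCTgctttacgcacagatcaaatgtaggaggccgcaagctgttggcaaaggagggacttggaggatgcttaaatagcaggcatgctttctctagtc
Lyz2: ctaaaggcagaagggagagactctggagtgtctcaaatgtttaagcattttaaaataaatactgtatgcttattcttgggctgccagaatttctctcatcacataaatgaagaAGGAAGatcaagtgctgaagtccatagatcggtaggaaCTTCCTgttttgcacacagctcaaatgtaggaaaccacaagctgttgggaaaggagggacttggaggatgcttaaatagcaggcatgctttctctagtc
Over the windows shown, 152 of 250 bases were identical position by position, and 200 of 252 positions once aligned with gaps. The likeness was closest near the start, with 92 of the last 100 bases before it and 49 of the 50 transcribed bases after it. One AGGAAG match lay at the same place in both genes, -99 to -94 relative to the start, and Lyz2 had a further match.

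The scavenger receptors among the 10 genes differed among themselves. Marco, a receptor of marginal zone and alveolar macrophages, had 5.23 and 5.35 in AhR-deficient cells, against 4.82 and 4.65 in wild-type cells. The difference of 0.56 (SE 0.10) was small, and the gap of 0.41 between the nearest arrays exceeded the 0.11 and 0.17 within the genotypes. The wild-type values of Marco lay not far above the arrays' 25th percentiles of 4.54 to 4.57. With 16 added on the linear scale its difference was 0.37. Msr1, the class A scavenger receptor of macrophages, had 4 probe sets, of which the brightest gave 6.31 and 6.20 in AhR-deficient cells, against 6.26 and 6.11 in wild-type cells (difference 0.07, SE 0.09). The other Msr1 probe sets differed by 0.03 to 0.17, 1 of them without overlap. Cd163, the haemoglobin scavenger receptor, had 3.70 and 3.65 in AhR-deficient cells, against 3.60 and 3.73 in wild-type cells, below the 25th percentile on all 4 arrays, so no difference was measurable there.

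Mertk encodes a receptor tyrosine kinase by which macrophages bind and engulf apoptotic cells, and it is widely used to tell macrophages from dendritic cells. It had 4.77 and 4.70 in AhR-deficient cells, against 4.72 and 4.77 in wild-type cells (difference -0.01, SE 0.08). The arrays of both genotypes lay just above their 25th percentiles. In all, 3 of the 17 probe sets were below that percentile on every array, which were those of Cd163, 1 of Lyz1 and 1 of Msr1. At such levels a lack of difference does not bear on a change in the transcript.

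**Figure D2:**
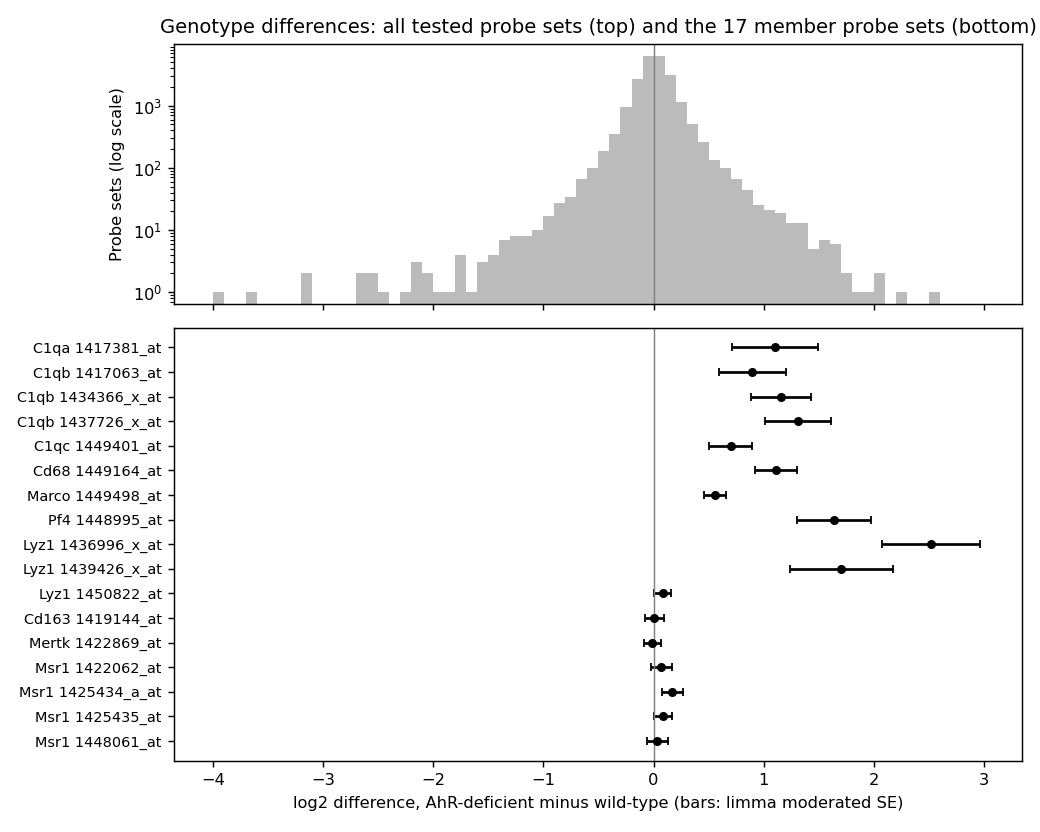
Top, number of tested probe sets (log scale) by log2 difference, AhR-deficient minus wild-type; bottom, the 17 probe sets of the macrophage-type genes with limma's moderated SE as bars. The Lyz1 probe set at 2.52 lies at the far right end of the distribution, and Cd163, Mertk and the Msr1 probe sets lie between -0.01 and 0.17. Several of the genes were chosen for being higher in AhR-deficient cells on these arrays.

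Within a genotype the arrays also differed, in a way that the genotype contrast does not use. AhR-deficient replicate 1 was above AhR-deficient replicate 2 in 15 of the 17 probe sets, against 52.6% of all probe sets. Wild-type replicate 2 was above wild-type replicate 1 in 14 of 17, against 48.0% of all. The 17 are not independent, since several share a gene and all share the arrays. AhR-deficient replicate 1 was the highest array in 13 of the 17, and wild-type replicate 1 the lowest in 12. In 4 of the 12 probe sets without overlap, the gap between the nearest arrays exceeded the spread within both genotypes. The counts of highest and lowest arrays and of gaps were not taken over all probe sets. As the genotype contrast helped to choose the genes, nothing is read from them.

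RNA quality was read from control probe sets at both ends of the Actb and Gapdh transcripts. For Actb, the 3' end exceeded the 5' end on the log2 scale by 2.34 and 2.61 in AhR-deficient cells, against 3.16 and 2.65 in wild-type cells. For Gapdh the excess was 2.24 and 2.19 in AhR-deficient cells, against 2.60 and 1.97 in wild-type cells, which overlapped. Wild-type replicate 1, the array with the greatest value for both, was also the lowest for 12 of the 17 probe sets. That count was not taken over all probe sets. Choosing genes as higher in AhR-deficient cells also favours a wild-type array as the lowest, so nothing is read from it. Without wild-type replicate 1 the median difference of the 10 genes was 0.62, against 0.90 with all arrays. The part of RNA quality in these differences was not tested.

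Among probe sets of other genes, 5 were taken as most like the C1q genes over the 4 arrays. The likeness was the root mean square distance between log2 values centred over the 4 arrays and the mean centred profile of the 3 C1q genes. Nearest was Lgmn, the lysosomal protease legumain, at a distance of 0.02, with 7.85 and 7.50 in AhR-deficient cells, against 6.30 and 7.00 in wild-type cells. Next came 2 probe sets of Rbm39 and 1 each of Gusb, the lysosomal enzyme beta-glucuronidase, and Luc7l2, at distances of 0.04 to 0.07. Among the 10 genes themselves, Cd68 lay at 0.12, Pf4 at 0.37 and Marco at 0.41. Rbm39 and Luc7l2 encode RNA-binding proteins of splicing. The likeness rests on 4 values a probe set and is a description.

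Other genes of macrophages and monocytes gave a mixed picture. Of 35 listed, 32 were measured. limma called 0 of them (background 0.0323% of genes), and at an unadjusted p under 0.05 there were 8, of which 5 were higher. Over all 12393 genes, 811 had an unadjusted p under 0.05, of which 434 were higher, and the lists below share this background. Without overlap 12 were higher and 4 lower, which is 37.5% and 12.5%, against 18.8% and 16.6% of all genes. Their median difference was 0.09, against 0.01 over all genes, and was 0.03 without AhR-deficient replicate 1.

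The greatest positive difference in that list was that of Mpeg1, a pore-forming protein of phagocytes, which had 8.07 and 7.47 in AhR-deficient cells, against 6.10 and 6.89 in wild-type cells (1.28, SE 0.35). Apoe, a lipid carrier secreted by macrophages, had 6.14 and 6.03 in AhR-deficient cells, against 4.89 and 5.05 in wild-type cells (1.12, SE 0.10). Cd14, the co-receptor for lipopolysaccharide, had 7.54 and 6.78 in AhR-deficient cells, against 6.46 and 6.44 in wild-type cells (0.71, SE 0.27). These 3 did not overlap between the genotypes, and none passed limma's adjusted threshold. The same held for Clec4d (1.07, SE 0.29), Sirpa by the brightest of its 3 probe sets (0.96, SE 0.28) and Hmox1 (0.51, SE 0.19). Lyz2, given above, was also among the 12 higher genes, and of the rest Vsig4 had the greatest difference (0.14, SE 0.08).

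Of the 4 macrophage and monocyte genes lower without overlap, 3 are given in full, and none passed limma's adjusted threshold. Csf1r, the receptor on which macrophages and Langerhans cells depend, had 10.54 and 10.14 in AhR-deficient cells, against 11.07 and 11.70 in wild-type cells (-1.05, SE 0.26). Its other probe sets differed by -0.93 (SE 0.20) and, with overlap, by -0.58 (SE 0.39). Adgre1, a classical surface marker of mouse macrophages that Langerhans cells also carry, had 6.92 and 5.84 in AhR-deficient cells, against 7.11 and 7.43 in wild-type cells (-0.89, SE 0.39). Gpnmb, a glycoprotein of lysosome-rich macrophages and melanocytes, had 5.65 and 5.99 in AhR-deficient cells, against 6.45 and 7.71 in wild-type cells (-1.25, SE 0.45). Genes that are used to identify macrophages lay on both sides, with 12 of the list higher and 4 lower without overlap.

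Several defining macrophage genes had little signal or difference. Fcgr1, the high-affinity IgG receptor, was below the 25th percentile on all arrays, with 4.14 and 4.19 in AhR-deficient cells, against 4.11 and 4.28 in wild-type cells, and so were Lyve1 and F13a1. Mrc1, the mannose receptor, had 5.51 and 5.27 in AhR-deficient cells, against 5.30 and 5.15 in wild-type cells. Itgam, the integrin chain CD11b, had 4.79 and 4.51 in AhR-deficient cells, against 4.71 and 4.48 in wild-type cells. The summed linear level of the 32 genes was 4478 and 3428 in AhR-deficient cells, against 4275 and 5608 in wild-type cells. Without Csf1r, the brightest of them, it was 2993 and 2302 in AhR-deficient cells, against 2118 and 2283 in wild-type cells, so the lower AhR-deficient array then barely exceeded the higher wild-type array. In RNA from a sorted population, more macrophage-like cells and more RNA of these genes per cell cannot be told apart, and the part of such cells in the differences was not tested.

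**Figure D3:**
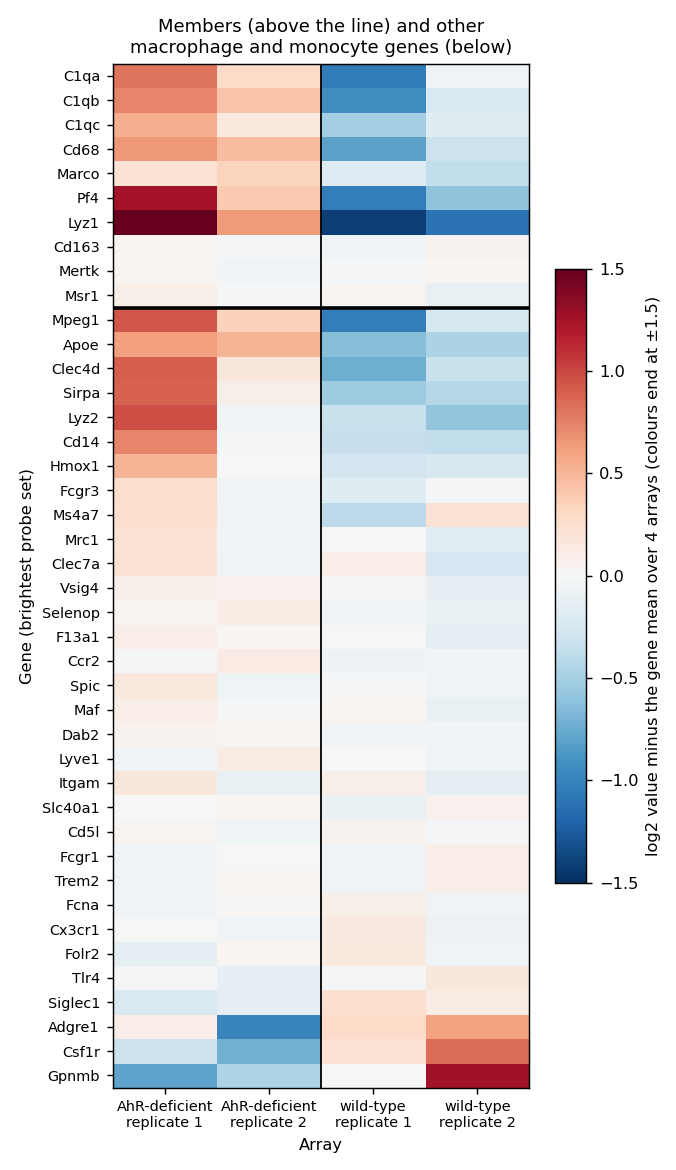
Log2 values minus each gene's mean over the 4 arrays, for the 10 macrophage-type genes (above the black line) and 32 other macrophage and monocyte genes sorted by genotype difference (below), with AhR-deficient arrays left of wild-type arrays. Mpeg1 and Apoe share the colours of C1q, Cd68 and Pf4, while Csf1r has the opposite ones. Adgre1 and Gpnmb are also lower in AhR-deficient cells. For them, AhR-deficient replicate 1 (Adgre1) and wild-type replicate 1 (Gpnmb) lie near the gene's mean.

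Of 18 further listed genes of complement and its partners, 14 were measured, and all 14 overlapped between the genotypes. Without overlap 0% were higher and 0% lower, against 18.8% and 16.6% of all genes. C1q forms a complex with the proteases C1r and C1s, which cleave C4 and C2. Of the 14, limma called 0 (0.0323% of all genes were called) and 0 had an unadjusted p under 0.05. On all arrays 5 of the 14 were below the 25th percentile, so no difference was measurable for those 5. C1ra differed by 0.01 (SE 0.09) and C1s1 by -0.02 (SE 0.12), with C1ra and C2 below the 25th percentile on all arrays. C3ar1, the receptor for the C3a fragment, had 7.37 and 6.88 in AhR-deficient cells, against 6.35 and 7.02 in wild-type cells (0.44, SE 0.29). C5ar1, the receptor for C5a, was below the 25th percentile on all arrays.

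Among 16 further scavenger receptors and lysosomal membrane genes, limma called 0, 2 had an unadjusted p under 0.05, and 5 were higher without overlap and 0 lower (31.2% and 0%, against 18.8% and 16.6% of all genes). Cd36, a receptor for fatty acids and oxidised lipoproteins, had 5.60 and 4.42 in AhR-deficient cells, against 3.75 and 3.75 in wild-type cells, so 3 of its 4 values were below the 25th percentile and AhR-deficient replicate 1 alone stood out. Lamp1, a lysosomal membrane protein, differed by 0.52 (SE 0.28). Among 20 genes of apoptotic cell uptake, the process in which Mertk acts, limma called 0, 2 had an unadjusted p under 0.05, and 3 were higher and 3 lower without overlap (15% each, against 18.8% and 16.6% of all genes). Gas6, a ligand of the Mertk family, differed by 0.30 (SE 0.11), Axl, a relative of Mertk that was dim on 3 arrays, by 0.04 (SE 0.10), and Mfge8, a bridging protein for dying cells, by -0.50 (SE 0.20).

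Markers of other cells were set beside the macrophage-type genes. Of 15 genes of neutrophil granules and neutrophils, limma called 0, 0 had an unadjusted p under 0.05, and S100a8 and S100a9 were below the 25th percentile on all arrays. Without overlap 4 of the 15 were higher and 2 lower (26.7% and 13.3%, against 18.8% and 16.6% of all genes). The summed linear level of that list was 755 and 789 in AhR-deficient cells, against 757 and 763 in wild-type cells. Of 19 keratinocyte genes, 9 were higher and 2 lower without overlap (47.4% and 10.5%, against 18.8% and 16.6% of all genes), with 0 called by limma and 2 with an unadjusted p under 0.05. Their summed linear level was 1530 and 944 in AhR-deficient cells, against 827 and 889 in wild-type cells, highest on AhR-deficient replicate 1, as for most of the macrophage-type genes. Dsp, a desmosome protein, had the greatest difference there (1.32, SE 0.43). Of 12 T cell genes 4 were lower and 0 higher without overlap (33.3% and 0%, against 16.6% and 18.8% of all genes), with 0 called and 3 at an unadjusted p under 0.05, and Cd3g differed by -1.26 (SE 0.15). The part of these cells in the differences of the macrophage-type genes was not tested.

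Of the 24 Langerhans and dendritic cell genes, 8 were higher and 5 lower without overlap (33.3% and 20.8%, against 18.8% and 16.6% of all genes). limma called 0 of them, and 8 had an unadjusted p under 0.05, against 811 of all 12393 genes. The MHC class II genes H2-Aa (1.31, SE 0.14) and H2-Ab1 (1.24, SE 0.27) had the greatest differences, and Tgfbr2, a receptor chain for TGF-beta, differed by -0.68 (SE 0.17). Genes of B cells, mast cells, stroma with endothelium, and melanocytes had median differences of -0.03, 0.00, -0.02 and -0.04, with 0 called by limma and 1 of these 38 genes, Kit (-0.64, SE 0.12), at an unadjusted p under 0.05. Without overlap, 5 of the 12 stroma genes were lower and 2 higher (41.7% and 16.7%, against 16.6% and 18.8% of all genes). The stroma differences lay between -0.22 and 0.10. The shares higher and lower were 22.2% and 11.1% for B cell, 30% and 20% for mast cell, and 0% and 14.3% for melanocyte genes.

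**Figure D4:**
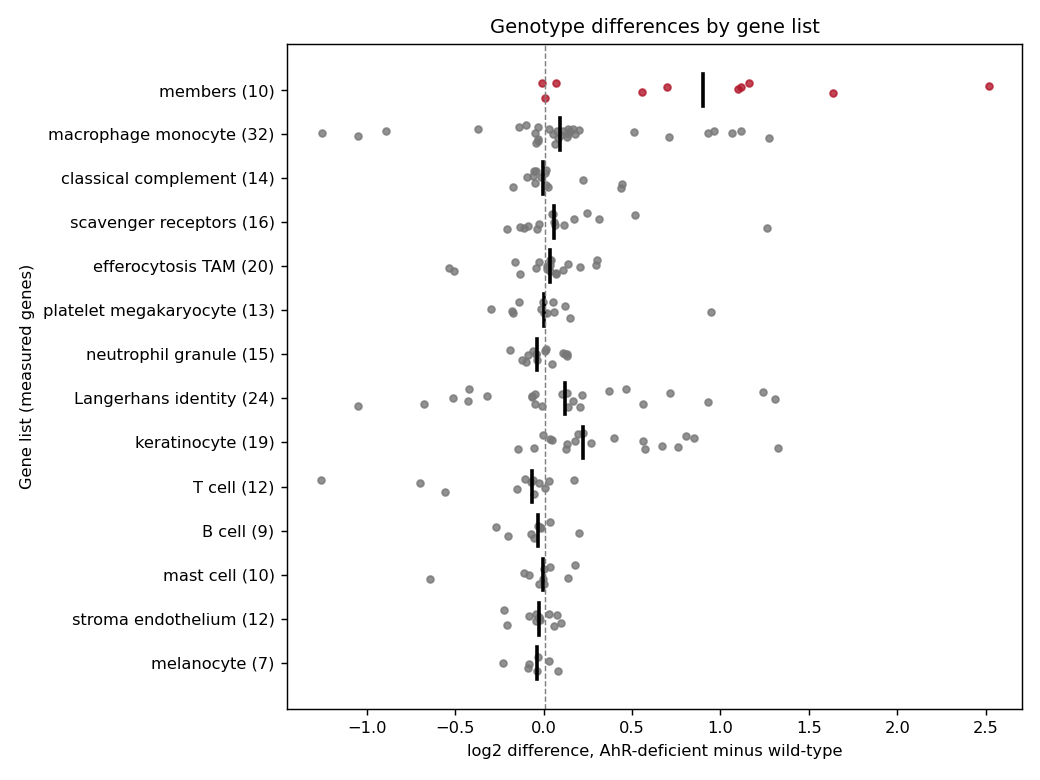
Log2 differences, AhR-deficient minus wild-type, of single genes (points, spread vertically at random) in each list, with the list's median as a black bar and the median of all genes as a dashed line. The 10 macrophage-type genes, in red, have a median of 0.90, and the other lists have medians between -0.06 and 0.22; the red genes were partly chosen for this difference.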

How the data were processed

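Amplified, biotin-labelled RNA was run on Affymetrix MOE430A arrays, per the labels' protocols. The deposited values are log2 expression levels of probe sets. They were made with affy by RMA, a method that quantile-normalises arrays, per the submitters' processing notes. No versions are given. Of 22690 probe sets, 64 controls were left out and 22626 tested. Symbols came from the platform annotation, with 1 symbol for 20380 probe sets, several for 691 (not named) and none for 1555; through Entrez identifiers 20351 matched RefSeq and 0 changed. The brightest probe set over the 4 arrays stood for a gene. No detection calls were used, so a probe set below an array's 25th percentile was called dim.

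The genotype contrast was fitted with limma 3.58.1 under R 4.3.3 (lmFit, eBayes, two-sided, residual df 2, prior df 2.27, Benjamini-Hochberg over all tested probe sets, threshold 0.05). Precision is limited by the number of arrays (median SE 0.10). The steps were tested on simulated data. The 10 genes and 13 further lists were chosen with earlier results of these data known. Named were all probe sets of the 10 genes, fixed lineage genes, up to 2 non-overlapping genes at each end of a list, the 5 probe sets nearest the C1q profile, and Ahr. Other genes named for low signal, for their role or for their difference, such as C1ra, C1s1, Lyve1, Clec1b and Clec4d, were picked after their values were seen. Alternatives were other scalings, a replicate block, other probe set choices and leaving out each array. Deviations of same-numbered arrays correlated at -0.309 across probe sets, so the replicate numbers were not taken as pairs. Promoter windows were RefSeq's (GRCm38.p6), matched for 8 of the 10 genes, and only the 250 bases before the start were searched.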

Additional observations from a re-analysis of the deposited data

How the results depend on the processing

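The 2 arrays a genotype and dim signal for Cd163, 1 Lyz1 and 1 Msr1 probe set limit these results. limma called 0 of the 17 probe sets of the macrophage-type genes under every alternative tried. Differences of single genes that moved by more than the replicate SD were those of Lyz1 (1.44 by the mean of its probe sets, 0.08 by its dim probe set and 0.08 without _s_at, _x_at and _a_at probe sets) and Marco (0.37 with 16 added on the linear scale), but leaving out 1 of 2 arrays cannot exceed that SD. With 16 added Lyz1 differed by 1.92. The median of the 10 genes, 0.90, was 0.63 with Lyz1 read by its dim probe set, an alternative chosen after seeing the data. It was also 0.63 without _s_at, _x_at and _a_at probe sets. That left fewer probe sets of these genes, 7 of them higher without overlap. These include the dim Lyz1 probe set, with its nearest arrays 0.025 apart. No share of all probe sets was taken there, so nothing is read from the 7. Leaving out 1 array gave medians of 0.62 to 1.11. Over all probe sets limma called 4 lower and 0 higher; these were 0 lower with 16 added, 0 with the replicate block, 0 with the crossed replicate block (added after seeing the data) and 0 to 0 without 1 array, and 7 lower and 1 higher with a trend in eBayes. The numbers do not pair the arrays by their labels. List medians without _s_at, _x_at and _a_at probe sets were -0.051 for Langerhans, 0.011 for mast cell, 0.017 for scavenger and -0.044 for stroma genes. With dim probe sets left out they were 0.015 for neutrophil and 0.12 for scavenger genes. The median of all genes was -0.0052 median centred and -0.0062 quantile normalised again, where that of mast cell genes was -0.017, and that of stroma genes was -0.015 with 16 added and -0.036 median centred. Leaving out 1 array, medians ranged over 0.000079 to 0.21 for Langerhans (lowest without wild-type replicate 1), -0.14 to -0.021 for T cell, -0.053 to 0.066 for complement, 0.13 to 0.36 for keratinocyte, 0.031 to 0.12 for macrophage, -0.12 to -0.014 for melanocyte, -0.053 to 0.043 for neutrophil, -0.036 to 0.074 for platelet, 0.022 to 0.083 for scavenger and -0.038 to -0.020 for stroma genes. The cause of these shifts was not tested.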
